A study of Acromyrmex echinatior with 18 samples.

Results

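Tap42 and S6k, a pair of genes of the TOR growth pathway, carried 87 of the 17229 RNA editing sites listed for female heads of Acromyrmex echinatior, a leaf-cutting ant. Tap42 (Aech_09719) held 45 of them and S6k (Aech_11007) held 42. The members were all rows of the site table assigned to either gene. The genes were chosen by values from the same table, namely their many closely spaced sites, the difference between small and large workers at 1 Tap42 site, and the difference between small workers and gynes at 1 S6k site. Those differences are therefore described below without a test.

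TOR is a protein kinase that couples nutrient and insulin-like signals to protein synthesis, autophagy and cell growth. S6k encodes the kinase that TOR phosphorylates and that acts on ribosomal protein S6 and other parts of the translation machinery. Tap42 binds catalytic subunits of the protein phosphatase 2A family, as shown in yeast and Drosophila, and in yeast this binding is under the control of TOR. In the honey bee, larval TOR signalling takes part in the choice between queen and worker development. RNA editing of the A-to-G kind is the work of ADAR enzymes, which turn adenosine in double-stranded RNA into inosine, a base that sequencing reads as G.

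Heads of small workers, large workers and gynes, the winged females that can become queens, were taken from 3 laboratory colonies, called A, B and C here, with no treatment or genotype difference named in the labels. Each RNA library was made from 1 pool per caste and colony, with 200 heads for small workers and 50 for large workers or gynes, and bodies of the same caste and colony gave a DNA library. With 1 pool per colony and caste, errors below measure how pools of different colonies varied, not how ants did. The editing level of a site is the share of RNA reads with the edited base. Small workers of colony B had the most RNA reads over all sites of the table (1037408), large workers of colony B had the fewest (479998), and each of the 3 libraries from small workers exceeded those from the other castes.

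All 87 sites were A-to-G changes, all lay in the 3' UTR of genes on the minus strand, and none lay in a transposable element. Of all 3182 sites in 3' UTRs, 966 (30.4%) lay in such elements. The Tap42 sites stood between positions 233187 and 234026 of scaffold 185 in assembly Aech_2.0, a stretch of 840 bases with 5.36 sites per 100 bases. The S6k sites stood between positions 19384 and 20172 of scaffold 141, a stretch of 789 bases with 5.32 sites per 100 bases. Among the 188 genes with at least 10 sites the median was 0.802 sites per 100 bases, counted from the first to the last site, and Tap42 ranked 21 and S6k 23 by density. By the number of sites Tap42 ranked 10, level with 1 other gene, and S6k ranked 12 in a tie of 4 genes. These counts took part in the choice of the genes.

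The sites of Tap42 lay closer together in short groups than those of S6k. The median gap between neighbouring sites was 4 bases in Tap42 and 12 in S6k, and the largest gaps were 151 and 105 bases. In Tap42, 21 sites stood directly beside another edited base, and in S6k 13 did. Sequenced reads were 90 bases long, so that neighbouring sites were mostly covered by the same fragments and are not independent measurements of a caste. Within Tap42, 7 of 13 directly adjacent pairs had the higher level at the base nearer the 3' end, against 556 of 978 such pairs (56.9%) at other tested sites of the table, while in S6k 0 of 2 tested pairs did. Sequence around the sites was not analysed here.

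In DNA, all 87 sites had at least 10 reads in every one of the 9 libraries and 0 reads with the edited base, which is a property of every site kept in the table. In RNA, the authors marked a site as edited in each library separately. They marked 18 of the 45 Tap42 sites and 11 of the 42 S6k sites in all 9 libraries, and 2 sites of each gene in 1 library only. The number of marked Tap42 sites was 41, 44 and 37 in small workers of colonies A, B and C, 38, 29 and 33 in large workers and 37, 36 and 28 in gynes. For S6k it was 35, 39 and 32 in small workers, 25, 25 and 27 in large workers and 30, 22 and 29 in gynes. Small workers had the most marks in every colony for both genes, beside their deeper libraries.

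Read depth set how precisely each gene could be measured. A level was compared between castes where a site had at least 10 RNA reads in all 9 libraries, which held for all 45 Tap42 sites and for 16 of the 42 S6k sites. The passing Tap42 sites had 16 to 228 reads per library with a median of 51, and the 95% Wilson interval of a level spanned a median of 15.0 percentage points. The 16 S6k sites had 10 to 64 reads with a median of 22.5, and the interval spanned a median of 25.9 points. These intervals cover counting error only, as the reads carry no molecular identifiers. Of the other 26 S6k sites, 3 had a library with 0 reads.

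**Figure D1:**
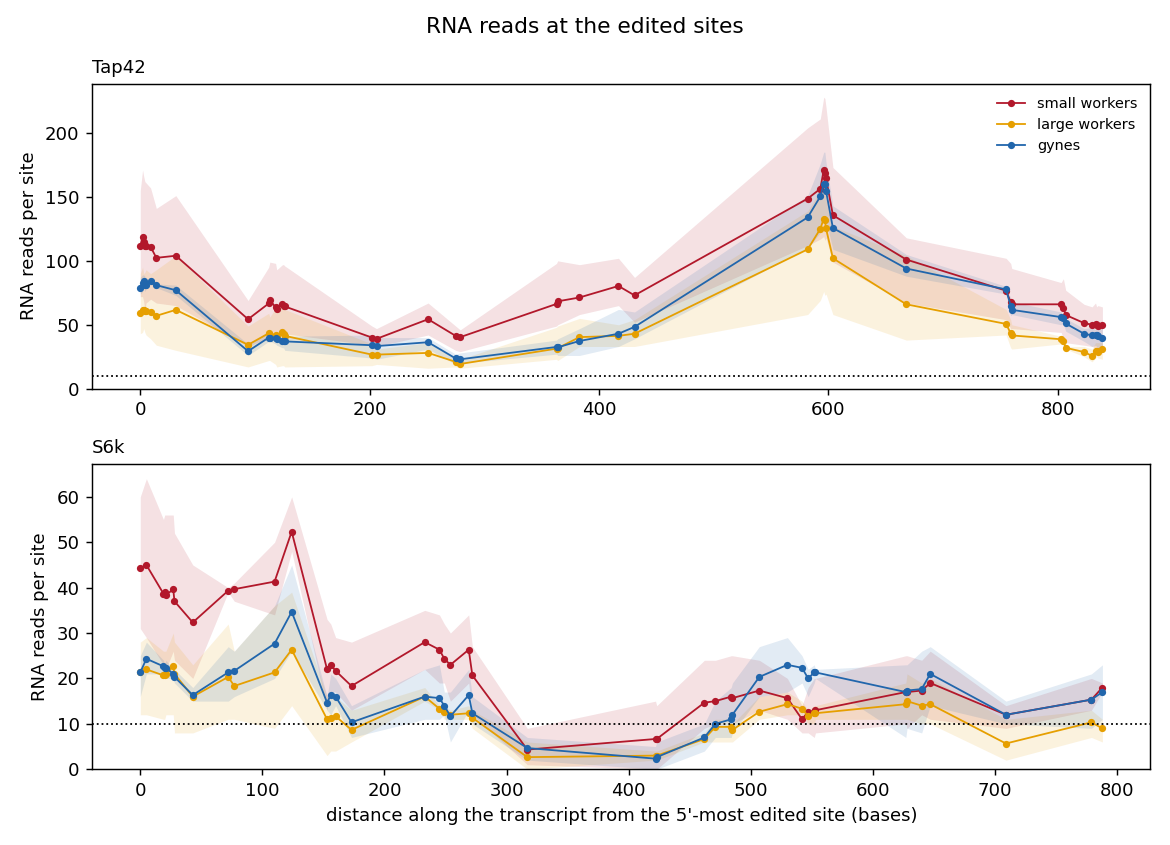
RNA reads per site along the 3' UTR clusters of Tap42 (upper panel) and S6k (lower panel), against the distance in bases from the edited site nearest the 5' end. Points are means over the 3 libraries of a caste, bands run from the lowest to the highest library, and the dotted line marks 10 reads. All Tap42 sites lie above the line in every library, whereas the middle of the S6k cluster falls below it in all 3 castes.

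Coverage of both genes relative to all reads of the table overlapped between castes. Tap42 had 96.3, 97.7 and 68.3 reads per site, scaled to RPM of all table reads, in small workers of colonies A, B and C, 90.9, 97.9 and 77.6 in large workers and 94.8, 109 and 117 in gynes. S6k had 28.2, 26.8 and 20.7 in small workers, 22.2, 20.2 and 28.4 in large workers and 24.6, 23.8 and 37.2 in gynes. In such pooled heads, fewer cells that express a gene and less RNA per cell cannot be told apart, nor can a higher level in every cell and a larger share of cells with editing.

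Tap42 was edited at low to moderate levels at all of its sites. Site means over the 9 libraries ran from 1.12% to 44.0% with a median of 10.5%, with 12 sites at 20% or more, 11 between 10% and 20%, and 22 below 10%. The site at position 233824 had the highest mean, with levels of 57.1%, 62.2% and 47.1% in small workers of colonies A, B and C, 40%, 37.0% and 38.9% in large workers, and 44.4%, 29.2% and 40.5% in gynes. The next highest was 233908, with 62.2%, 52.8% and 47.5% in small workers, 34.9%, 31.6% and 23.3% in large workers, and 37.1%, 34.9% and 40.5% in gynes. At both sites all small worker levels lay above all those of large workers and of gynes, and large workers overlapped gynes. The mean difference between large workers and gynes at 233908 was the most negative in Tap42. The third, 233187, had 35.2%, 54.7% and 37.5% in small workers, 38.9%, 26.5% and 34.8% in large workers, and 29.3%, 33.3% and 28.6% in gynes. There the small worker libraries overlapped those of large workers and lay above those of gynes.

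**Figure D2:**
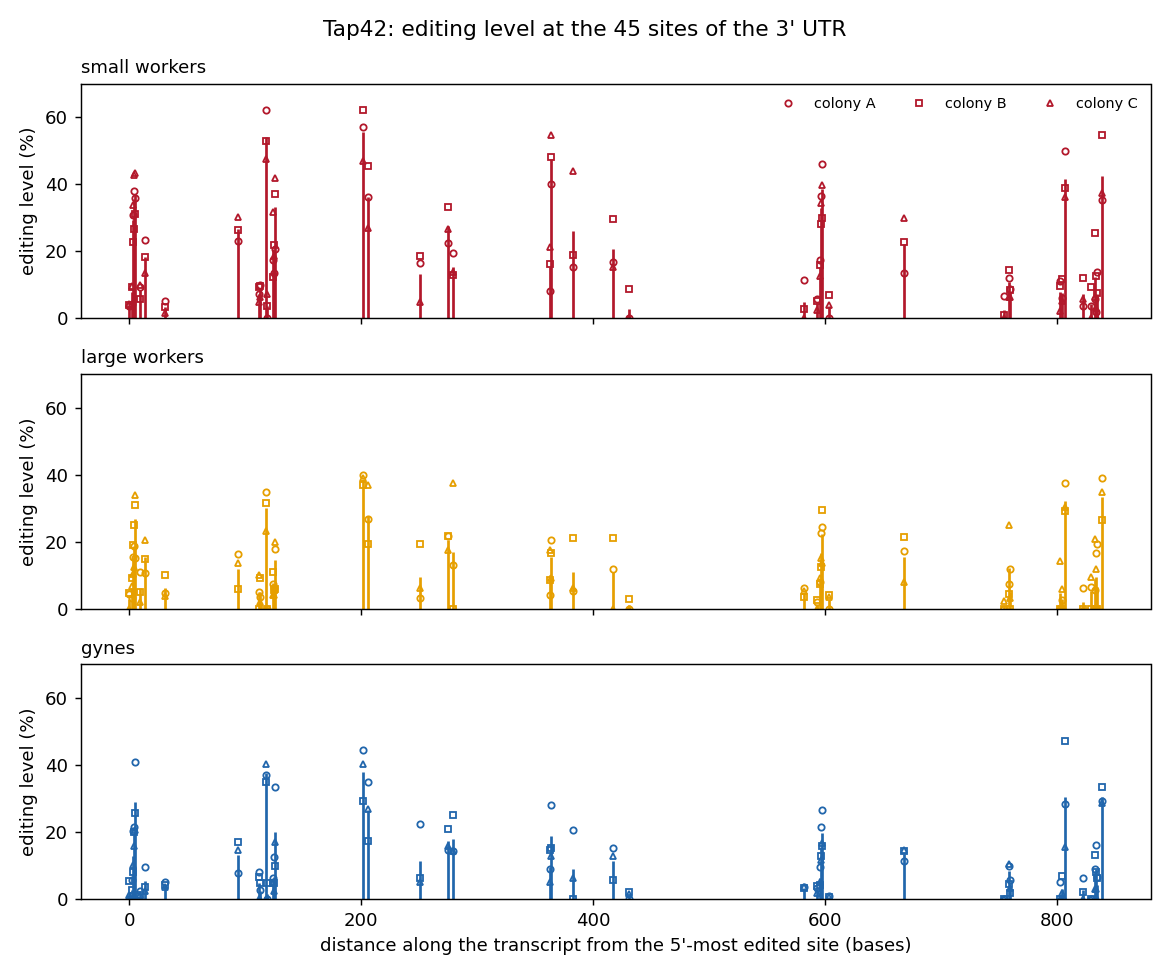
Editing level in percent at the 45 Tap42 sites, against the distance in bases from the edited site nearest the 5' end, for small workers, large workers and gynes from top to bottom. Vertical lines are means of 3 libraries and symbols are the colonies. High and low sites alternate along the cluster at the same places in all 3 castes, and the site means reach 55.5% in small workers, 38.6% in large workers and 38.0% in gynes.

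The order of sites from weakly to strongly edited was much alike in the castes. Across the 45 Tap42 sites, caste means had a Pearson r of 0.928 between small workers and gynes, 0.962 between large workers and gynes, and 0.905 between small and large workers. Across the 16 S6k sites these values were 0.903, 0.847 and 0.886. The sites share libraries and reads, so the values are descriptions without a test.

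Averaged over its 45 sites, Tap42 was edited at 18.4%, 20.1% and 18.5% in small workers of colonies A, B and C, at 12.3%, 11.0% and 12.2% in large workers, and at 13.6%, 10.6% and 8.83% in gynes. All 3 small worker libraries lay above the other 6, and large workers and gynes overlapped. The caste means were 19.0% ± 0.967 in small workers, 11.9% ± 0.709 in large workers and 11.0% ± 2.40 in gynes (SD, n = 3 each). At the 1091 other tested A-to-G sites in 3' UTRs outside transposable elements the level was 16.3% ± 0.320 in small workers, 13.9% ± 0.730 in large workers and 11.9% ± 0.184 in gynes (SD, n = 3 each).

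Small workers exceeded gynes at Tap42 by 8.03 percentage points (SE 1.5), with differences of 4.80, 9.57 and 9.71 points in colonies A, B and C. The adjusted p was 0.0962 over the 700 genes with tested sites (limma, Benjamini-Hochberg), so that the gene did not pass the threshold of 0.05, which 2.29% of genes (16 of 700) passed in this contrast. The Tap42 mean includes site 233662, whose small worker levels took part in the choice of the gene, so the p is not free of that choice. Over all genes the median difference between these castes was 1.83 points, and 70.9% of genes were higher in small workers. Set against each library's mean over genes, the Tap42 difference was 5.28 points (limma adjusted p = 0.432). Large workers differed from gynes by 0.872 points (SE 1.45, limma adjusted p = 0.915), with -1.25, 0.485 and 3.38 points in the 3 colonies, and by -0.389 points relative to the mean over genes. In that contrast 0 of 700 genes (0%) passed, and 61 had an unadjusted p under 0.05.

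Small workers exceeded large workers at Tap42 by 7.15 points (SE 0.692), with 6.06, 9.08 and 6.32 points in colonies A, B and C. This contrast took part in the choice of Tap42, so its size is a description. The median over all genes was 1.03 points, 0 of 700 genes (0%) passed the threshold with limma, and 82 had an unadjusted p under 0.05. The comparisons of small workers with gynes and with large workers share the small worker libraries.

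**Figure D3:**
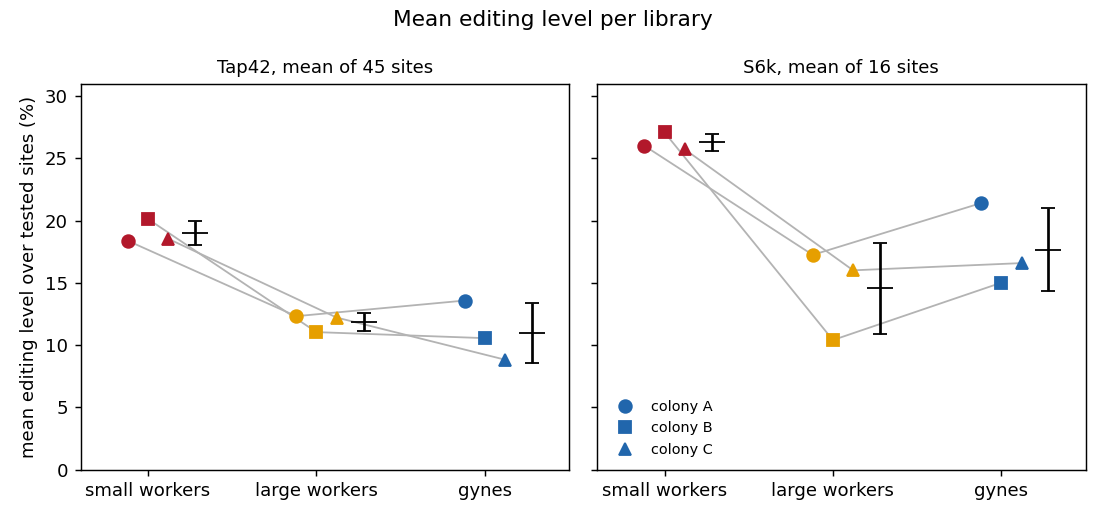
Mean editing level in percent per library over the 45 Tap42 sites (left) and the 16 S6k sites with at least 10 reads in all libraries (right). Symbols are colonies, grey lines join the libraries of a colony, and black bars are the mean and SD of 3 libraries. All small worker libraries lie above all others in both panels, while large workers and gynes overlap.

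Site by site, 42 of the 45 Tap42 sites were higher in small workers than in gynes and 3 were lower, with a median difference of 6.23 points and a range from -3.33 to 28.7. Over all 5720 tested sites of the table the median was 2.68 points and 74.6% were higher in small workers. Within colonies A, B and C, 32, 39 and 35 Tap42 sites were higher in small workers. The difference in points was larger where editing was higher. Its medians were 14.8 points at sites of 20% or more, 9.28 points between 10% and 20% and 3.51 points below 10%. Sites were grouped by the mean over all libraries, small workers included, and differences in points tend to grow with the level. The relative change was not compared. All 3 small worker levels lay above all 3 gyne levels at 18 sites (40%), against 22% of all tested sites. The 18 sites include 233662, whose small worker levels took part in the choice of the gene.

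At 6 Tap42 sites (13.3%) the rise in small workers over gynes passed the test across all sites (quasi-binomial model, adjusted p under 0.05), against 8.23% of all tested sites, which is 471 of 5720. Another 39 sites did not pass, and 17 of the 45 had an unadjusted p under 0.05. With limma on transformed levels 0 of the 45 passed, with 16 at an unadjusted p under 0.05, and with the colony as a block 0 passed, with 12. After an offset for the overall shift between castes 0 passed, with 8. The 6 sites were 233428, 233429, 233430, 233662, 234012 and 234023, of which 233429 and 234023 are named because they passed, after their values were seen. Site 233662 took part in the choice of the gene through small worker levels that this contrast also uses. Its call is therefore no independent result.

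A run of 3 adjacent bases, 233428 to 233430, was called as a whole and had the deepest coverage of the gene, with 73 to 228 reads per library. Largely the same fragments cover these bases, so the 3 calls are not separate measurements. At 233428 the level was 46.2%, 30% and 39.8% in small workers of colonies A, B and C, 24.3%, 29.3% and 13.5% in large workers and 26.7%, 15.8% and 16.7% in gynes (quasi-binomial adjusted p = 0.000277 for small workers against gynes). At 233429 it was 36.4%, 28.2% and 34.5% in small workers, 22.7%, 12.4% and 15.1% in large workers and 21.6%, 13.0% and 11.8% in gynes (adjusted p = 0.000198). All small worker levels lay above those of the other castes at both sites. At 233430, the site with the most reads, the level was 17.5%, 15.8% and 12.6% in small workers, 8.12%, 7.36% and 9.21% in large workers and 9.56%, 4.32% and 5.03% in gynes (adjusted p = 0.00948). The castes were again separated in the same way, at a lower level. The spread of 233428 and 233429 over libraries was larger than the one dispersion of 1.88 that the test applied to all sites, at 4.01 and 2.68, and that of 233430 was smaller, at 0.952.

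Near the end of the cluster that lies closest to the coding sequence, 2 sites passed. At 234012 the level was 23.2%, 18.4% and 13.4% in small workers, 10.8%, 14.7% and 20.5% in large workers and 9.76%, 3.80% and 2.44% in gynes (quasi-binomial adjusted p = 0.00945 for small workers against gynes). Both worker castes lay above gynes there in every library, and they overlapped each other. At 234023 it was 30.9%, 22.9% and 33.8% in small workers, 15.6%, 19.1% and 10.4% in large workers and 20.2%, 8.24% and 10.1% in gynes (adjusted p = 0.0252), so that small workers lay above both other castes. Its own dispersion, 1.93, was also above the shared value.

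The site with the largest caste differences in Tap42, 233662, was the one that took part in the choice of the gene. It was edited at 40%, 48.0% and 54.5% in small workers of colonies A, B and C, at 20.4%, 16.7% and 9.09% in large workers and at 28.1%, 15.4% and 12.8% in gynes, from 22 to 100 reads per library. All small worker levels lay above all others, and large workers and gynes overlapped. The means were 47.5% ± 7.28 in small workers, 15.4% ± 5.77 in large workers and 18.8% ± 8.20 in gynes (SD, n = 3 each). Its directly adjacent neighbour 233663 had means of 15.2% in small workers, 10.1% in large workers and 9.72% in gynes.

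A Tap42 site without the common pattern was 233192, the lowest of the gene in small workers relative to both other castes. Its level was 1.85%, 12.5% and 3.12% in small workers, 16.7%, 0% and 12.0% in large workers and 16.3%, 8.16% and 3.03% in gynes. All 3 castes overlapped. At 233196, only 4 bases away, editing was seen in both worker castes and not in gynes, with 3.77%, 9.38% and 0% in small workers, 6.45%, 0% and 9.52% in large workers and 0 edited reads of 48, 44 and 33 in gynes. A count of 0 at those depths allows levels of up to 6.25%, 6.82% and 9.09% in gynes (3 reads of the total), and neither worker caste passed the test against gynes there.

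Between large workers and gynes, 30 Tap42 sites had the higher mean in large workers and 15 the lower one. The median difference was 1.15 points and the range ran from -7.58 to 9.97. Over all tested sites the median was 1.22 points, and 62.4% were higher in large workers. In this contrast 0 of 45 sites passed the quasi-binomial test, against 0.472% of all tested sites, and 3 had an unadjusted p under 0.05. With limma 0 passed and 1 had an unadjusted p under 0.05. The site with the largest difference, 234012, was also the only one of the 45 whose large worker levels all lay above its gyne levels, against 9.83% of all tested sites.

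Between small and large workers, 39 Tap42 sites were higher in small workers and 6 were lower, with a median difference of 4.84 points and a range from -3.73 to 32.1. As this contrast took part in the choice of the gene, the counts are a description. All small worker levels lay above all large worker levels at 13 sites (28.9%), against a background of 12.8% of tested sites. Medians of the difference were 16.3 points at sites of 20% or more, 6.55 points between 10% and 20% and 2.21 points below 10%. The same limits on grouping by level and on points hold here.

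**Figure D4:**
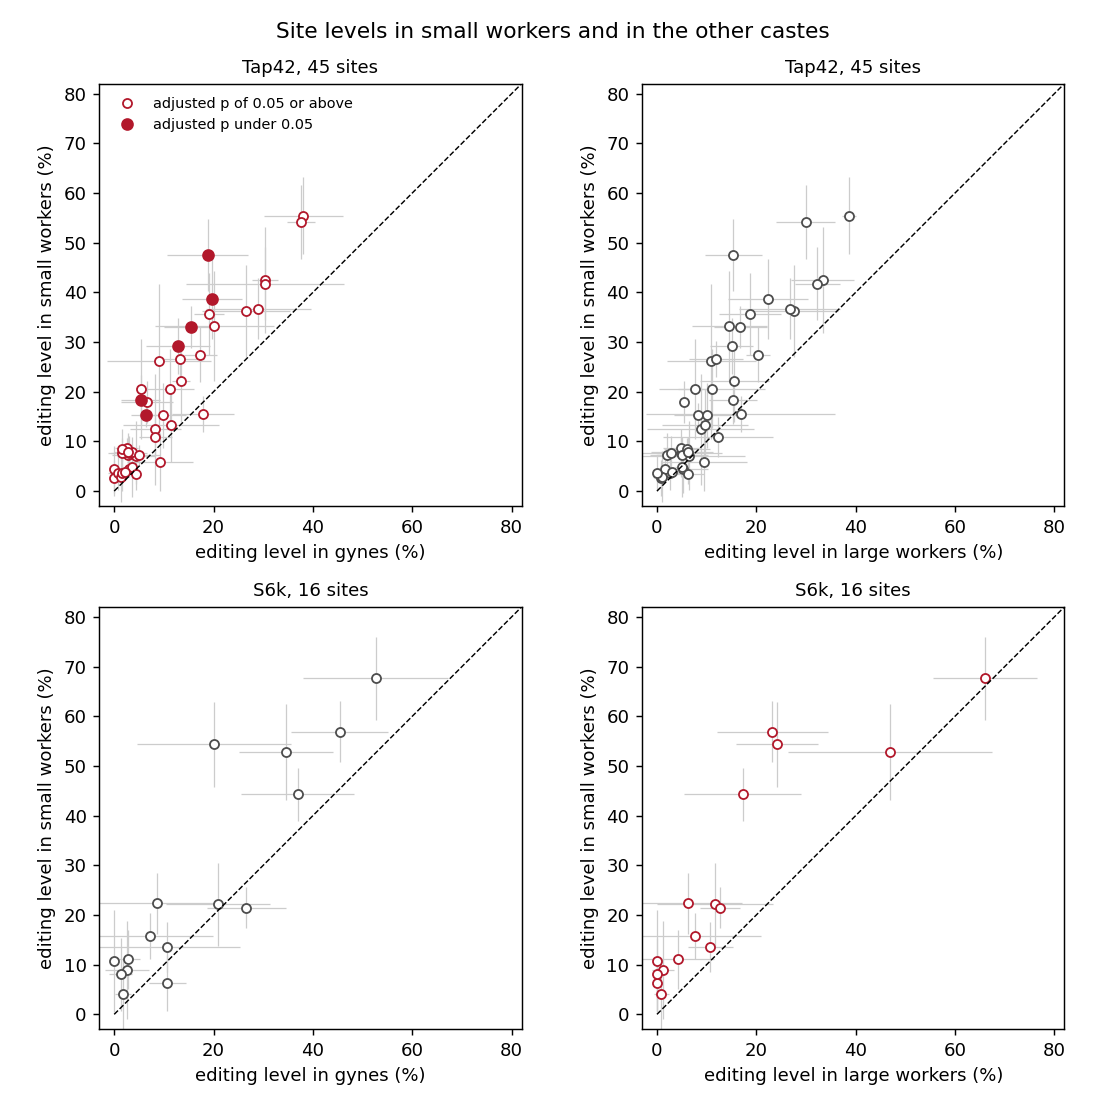
Mean editing level in percent at each tested site in small workers (vertical axis), against gynes (left column) or large workers (right column), for Tap42 (upper row) and S6k (lower row). Grey bars are the SD over 3 libraries, the dashed line marks equal levels, and filled points had a quasi-binomial adjusted p under 0.05. The upper right and lower left panels show contrasts that took part in the choice of the genes, in grey with no test marked. The filled points include site 233662, which took part in the choice of Tap42. Of the Tap42 points 42 lie above the line against gynes, and all 16 S6k points lie above it against large workers.

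S6k was edited more strongly than Tap42 at its highest sites, most of which had few reads. Over reads summed across the 9 libraries, site levels in S6k ran from 2.65% to 82.9% with a median of 24.9%, and 6 sites reached 50%, whereas the highest Tap42 site reached 45.7%. Of those 6 sites, 5 had under 10 reads in some library and were not tested. The most strongly edited, 19630, had summed levels of 87.9% in small workers (33 reads), 70.0% in large workers (40 reads) and 88.1% in gynes (67 reads). Its neighbour 19625 had 84.2% in small workers (38 reads), 65.7% in large workers (35 reads) and 85.0% in gynes (60 reads). Site 20016 had 78.3% in small workers, 58.8% in large workers and 67.3% in gynes, and 19918 had 68.1% in small workers, 75% in large workers and 71.4% in gynes. The fifth, 19749, had 65% in small workers (20 reads), 66.7% in large workers (9 reads) and 12.5% in gynes (8 reads), and 2 of its libraries had 0 reads. At 3 of these 5 sites large workers had the lowest summed level.

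**Figure D5:**
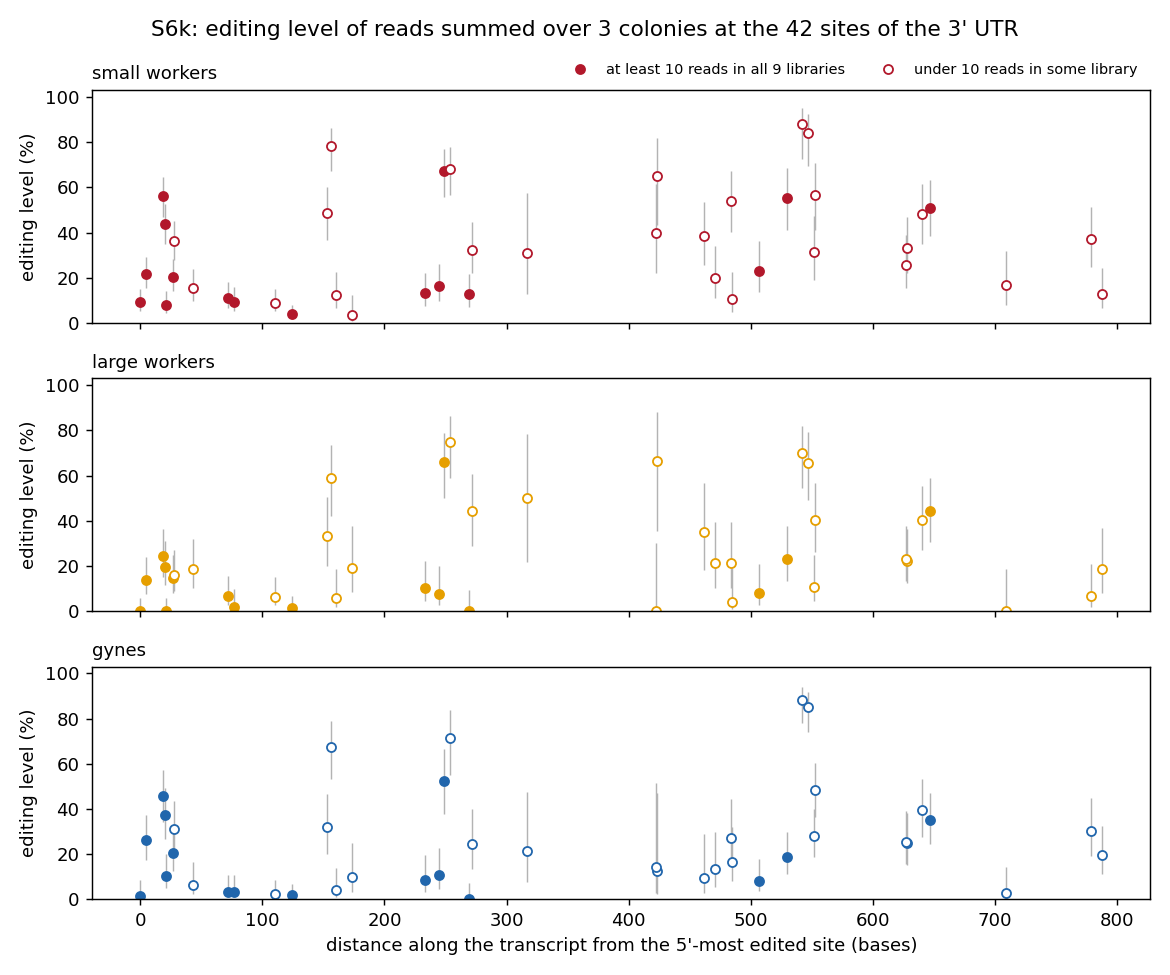
Editing level in percent of reads summed over 3 colonies at the 42 S6k sites, against the distance in bases from the edited site nearest the 5' end, for small workers, large workers and gynes from top to bottom. Filled points are the 16 sites with at least 10 reads in all 9 libraries, open points the other 26, and grey lines are 95% Wilson intervals for counting error only. The sites with the highest levels, 19630 and 19625, are open points at 542 and 547 bases.

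Averaged over the 16 tested sites, S6k was edited at 26.0%, 27.1% and 25.7% in small workers of colonies A, B and C, at 17.2%, 10.4% and 16% in large workers, and at 21.4%, 15.0% and 16.6% in gynes. All small worker libraries lay above the other 6, and large workers lay below gynes in every colony although the ranges of these castes overlapped. The means were 26.3% ± 0.717 in small workers, 14.6% ± 3.64 in large workers and 17.7% ± 3.33 in gynes (SD, n = 3 each). Over the summed reads of all 42 sites the levels were 27.5%, 30.6% and 27.7% in small workers, 20.8%, 21.1% and 21.6% in large workers, and 29.9%, 23.3% and 22.8% in gynes. On that measure gynes of colony A lay above small workers of colonies A and C, so that small workers and gynes overlapped, while large workers lay below both.

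Small workers exceeded large workers at S6k by 11.7 points (SE 2.14), with 8.77, 16.7 and 9.72 points in colonies A, B and C. The limma p was 0.00377 before and 0.206 after adjustment over the 700 genes, so that the difference did not pass the threshold, as none of the 700 genes did (82 at an unadjusted p under 0.05). The S6k mean includes site 19642, whose small worker levels took part in the choice of the gene. These p-values are therefore not free of that choice. Large workers lay 3.12 points below gynes (SE 2.85, limma adjusted p = 0.669), with differences of -4.16, -4.61 and -0.581 points in the colonies, where the median gene was 0.948 points higher in large workers. The difference was -1.04 points without large workers of colony B, -1.25 without gynes of colony A and -4.46 without large workers of colony A. Small workers exceeded gynes by 8.61 points (SE 1.97), with 4.61, 12.1 and 9.14 points in the colonies, a contrast that took part in the choice of S6k and is given as a description.

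All 16 tested S6k sites had a higher mean in small than in large workers. The 16 sites include 19642, whose small worker levels took part in the choice of the gene. The median difference was 8.10 points and the range ran from 1.64 to 33.7. Over all tested sites of the table the median was 1.55 points and 63.8% were higher in small workers. In this contrast 0 of the 16 sites passed the quasi-binomial test, against 0.874% of all tested sites, and 6 had an unadjusted p under 0.05. With limma 0 passed and 7 had an unadjusted p under 0.05. All small worker levels lay above all large worker levels at 4 sites (25%), against 12.8% of all tested sites.

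The S6k sites with the highest mean among those tested differed in their caste pattern. At 19923 the level was 77.3%, 62.5% and 63.2% in small workers of colonies A, B and C, 71.4%, 53.8% and 72.7% in large workers and 41.7%, 69.2% and 47.1% in gynes. At 19525 it was 45%, 50.0% and 63.6% in small workers, 40%, 30.8% and 70.0% in large workers and 45.5%, 28.6% and 29.6% in gynes. All castes overlapped at both sites. Among the 16 tested S6k sites these also had the largest positive differences between large workers and gynes.

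At 20153, near the end of the cluster closest to the coding sequence, large workers had the lowest levels. The site was named partly because, among the 16 tested S6k sites, its large worker mean lay furthest below both other castes. Its pattern therefore follows in part from that choice. Between large workers and gynes it did not pass the quasi-binomial test. The level was 50.9%, 63.2% and 56.5% in small workers, 36.0%, 18.2% and 15.4% in large workers and 56.5%, 38.1% and 41.7% in gynes. Every large worker library lay below every library of the other castes, and small workers and gynes overlapped (quasi-binomial adjusted p = 0.132 for small against large workers). Its adjacent site 20152, named after its values were seen, had 39.3%, 50.0% and 43.5% in small workers, 30.8%, 9.09% and 12.0% in large workers and 43.5%, 23.8% and 43.5% in gynes. The same fragments cover both sites. At 20167, with 12 to 64 reads, the level was 23.4%, 16.7% and 24.1% in small workers, 13.8%, 8.33% and 16% in large workers and 33.3%, 28.6% and 17.9% in gynes. Among the 16 tested S6k sites it had the lowest small worker level relative to gynes, and small workers overlapped gynes there while large workers lay below both.

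Site 19642, which took part in the choice of S6k, was edited at 62.5%, 55.0% and 45.5% in small workers of colonies A, B and C, at 21.4%, 17.6% and 33.3% in large workers and at 35.3%, 4.35% and 20.7% in gynes. All small worker levels lay above all others, and large workers and gynes overlapped. The means were 54.3% ± 8.54 in small workers, 24.1% ± 8.19 in large workers and 20.1% ± 15.5 in gynes (SD, n = 3 each), from 11 to 29 reads per library. The site with the most reads, 20048, was edited at 12.2%, 0% and 0% in small workers, 2.56%, 0% and 0% in large workers and 0%, 3.03% and 2.22% in gynes. The castes overlapped there, with 14 to 60 reads per library.

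Against gynes, 14 of the 16 tested S6k sites were higher in small workers and 2 were lower, with a median difference of 7.81 points. These counts are a description, since the contrast took part in the choice. Large workers were higher than gynes at 6 sites, lower at 9 and equal at 1, with a median difference of -1.09 points. In this contrast 0 of 16 sites passed the quasi-binomial test, against 0.472% of all tested sites, with 1 at an unadjusted p under 0.05, and with limma 0 passed, with 4. Of the 26 S6k sites left out of the tests, the summed level was higher in small workers than in gynes at 19, in large workers than in gynes at 12, and in small than in large workers at 18.

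The 2 genes had similar profiles over the libraries. Among 230 genes with at least 3 tested sites, the mean level of Tap42 over the 9 RNA libraries was most like that of Dp1 (Aech_01555, Pearson r = 0.959), which encodes the RNA-binding protein vigilin. Next came Pep (Aech_11796, r = 0.953), a zinc finger protein, and CG2061 (Aech_08197, r = 0.952), a LanC-like protein. Dp1 averaged 7.30% in small workers, 4.07% in large workers and 3.51% in gynes, and Pep averaged 26.6% in small workers, 20.1% in large workers and 17.3% in gynes. CG2061 averaged 27.9% in small workers, 20.7% in large workers and 18.4% in gynes. S6k ranked 15 for Tap42 with r = 0.902, where the median gene had 0.532. For S6k, the most alike were the uncharacterized gene Aech_05751 (r = 0.904), Tap42 (r = 0.902) and the integrin gene Aech_10706 (r = 0.883), with a median of 0.438. These values describe 9 libraries in 3 castes and have no test. Tap42 and S6k were each chosen in part by a site where small workers differed from another caste. That choice favours a likeness between the 2 profiles, so their r is no independent result.

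The other genes of the pathway held few sites that could be tested. Of 97 pathway names looked up among the fly orthologs, 8 genes besides Tap42 and S6k occurred in the table, with 43 sites, of which 4 sites in 4 genes could be tested. With the quasi-binomial test 0 of these 4 sites passed in any contrast. The only one of them in a 3' UTR with an A-to-G change lay in PpV (Aech_13881, position 238447 of scaffold 1), a phosphatase catalytic subunit that Tap42 binds in Drosophila. It had 4.38%, 9.57% and 9.45% in small workers, 4.88%, 1.47% and 0% in large workers and 9.68%, 7.23% and 2.22% in gynes. Small and large workers overlapped, as did gynes with both.

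The other testable sites were in mts, Akt1 and Tor. In mts (Aech_14614), the catalytic subunit of phosphatase 2A, a G-to-A change lay in the 3' UTR. It reached 11.0% in gynes of colony A (8 of 73 reads) and at most 3.51% in the other libraries. The coding sequence of Akt1 (Aech_09282), a kinase upstream of TOR, also held a G-to-A change. It was seen in 3 of 28 reads (10.7%) in large workers of colony C, 1 of 51 reads (1.96%) in gynes of colony C and 0% elsewhere. Neither G-to-A change is of the A-to-G kind described above for ADAR enzymes. In Tor itself (Aech_17291) a coding A-to-G change was seen in large workers of colony C alone, in 4 of 26 reads (15.4%). The remaining sites of the pathway, in chico, Atg13, CG4733, msn and a second site in mts, lacked the reads for a test, and most lay in introns. CG4733 held 18 of them and msn held 14.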

How the data were processed

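The authors deposited a table of editing sites which gives, per the file headers, counts of reference and edited reads for every DNA and RNA sample, packed in 1 cell with the authors' mark of a called site, and the position, element, gene and fly ortholog. RNA libraries were strand-specific and poly(A)-selected with 90 base reads, per the labels' protocols. BWA 0.5.9-r16 is named, per the submitters' processing notes. How sites were chosen is not given in the sources used here.

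Levels were edited reads over all reads. The 5720 sites whose RNA reads numbered 10 or more in each of 9 libraries were fitted together with a quasi-binomial model in R 4.3.3, all castes in 1 fit, the dispersion moderated with limma 3.58.1 (squeezeVar, never under 1), with Benjamini-Hochberg adjustment over all tested sites. The prior was infinite, so that 1 dispersion of 1.88 served all sites. Gene means over tested sites were fitted with limma on the arcsine-square-root scale (700 genes). Both were tested on simulated data. Standard errors of differences in points are from the SDs of the 2 castes.

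Sites named were the 3 with the highest mean, the 2 with the largest and the 1 with the most negative difference per contrast, and the one with most reads. The members, this rule and the pathway list were chosen with earlier results of these data known. Replicate letters mark the colony and so pair the libraries. Deviations from caste means correlated with r from -0.0225 to 0.0665 within colonies (median 0.0237) and from -0.0561 to 0.0416 (median -0.0117) between libraries of different colony and caste. Replicates differed by more than sampling noise (chi-square per degree of freedom 1.73 to 2.08). Alternatives were other read minimums, limma on site levels, a colony block, a dispersion prior that follows depth, levels relative to each library's overall shift, summed reads and leaving out each library. Python 3.11.15, pandas 2.3.3, SciPy 1.17.1, NumPy 2.4.6 and matplotlib 3.10.9 were used.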

Additional observations from a re-analysis of the deposited data

How the results depend on the processing

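For small workers against gynes, the 6 Tap42 calls became 0 with limma on site levels, 0 with the replicate block and 0 after an offset for the castes' overall shift, stayed at 6 with a minimum of 5 or 20 reads or a depth-dependent prior, and ran from 0 to 6 on leaving out a library. They were 0 without gynes of colony B or C or small workers of colony A or C, and 1 without large workers of colony A or small workers of colony B. The 6 calls include site 233662, which took part in the choice of Tap42. Calls in the contrasts that took part in the choice of the genes are no independent result and are not given. The dispersion prior also changed, from an infinite one to 0.903 degrees of freedom with the replicate block and 3.48 to 10.8 on leaving out a library. No S6k site had 20 reads in all libraries, so that this minimum gave no S6k value.

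For mean levels, the Tap42 difference between small workers and gynes ran from 6.95 to 9.32 points on leaving out a library and passed with limma without gynes of colony A (9.32 points, adjusted p = 0.0342) and without large workers of colony B (8.03 points, adjusted p = 0.0487), against adjusted p up to 0.137 otherwise. Relative to the mean over genes it was 5.28 points (adjusted p = 0.432). The Tap42 difference between large workers and gynes turned to -0.389 points relative to the mean over genes, and ran from -0.207 to 2.17 points on leaving out a library, negative without gynes of colony C and highest without gynes of colony A; the cause was not tested. The S6k difference between large workers and gynes ran from -4.46 to -1.04 points on leaving out a library. With the replicate block the limma adjusted p was 0.165 for Tap42 small workers against gynes and 0.323 for S6k small against large workers, and no call on a mean level changed. With a minimum of 5 reads S6k small workers exceeded gynes by 5.59 points and with summed reads of the tested sites by 5.66 points, against 8.61 points over the main sites.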
